A study of Mus musculus with 6 samples.

Results

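The ERK negative feedback genes are 10 mouse genes that are switched on downstream of ERK, the terminal kinase of the RAS-RAF-MEK-ERK cascade, or that restrain it: the phosphatases Dusp4, Dusp5 and Dusp6, the Sprouty genes Spry1, Spry2 and Spry4, the Spred genes Spred1 and Spred2, and the ETS transcription factors Etv4 and Etv5. They were chosen by name, and every probe set of the Affymetrix mouse array that its annotation assigned to 1 of them alone was taken, which gave 28 probe sets of the 45037 that are not controls. All 10 genes had such a probe set, as did 18193 genes on the whole array. Of the 28 probe sets 23 passed the filter on low signals (above the median of the array, about 67.2) and were tested. The comparison was between iPSC clones that had or had not received 3i while they were being reprogrammed.

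RNA was measured on 1 array per clone in 6 clones of undifferentiated mouse iPSCs. The clones were derived from embryonic fibroblasts of Nanog-GFP mice with retroviruses carrying Oct3/4, Sox2, Klf4 and c-Myc, together with a dsRed retrovirus, and were grown on SNL feeder cells in serum and LIF. The mixture called 3i holds a MEK inhibitor (PD184352), an FGF receptor inhibitor (SU5402) and a GSK3 inhibitor (CHIR99021). The (−)/(+) iPSCs (clones 1, 2 and 3) saw 3i only during maintenance, and the (+)/(+) iPSCs (clones 4, 5 and 6) also during reprogramming, so that both groups were kept under MEK inhibition when RNA was taken. Signals are MAS 5.0 intensities on a linear scale, with the arrays scaled to the same trimmed mean. Each clone is a line of its own, and its array gives 1 value, so that the spread given below is between clones. Whether feeder cells were removed before the RNA was taken is not given in the sources used here.

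FGF4 made by pluripotent cells activates FGF receptors, and the signal passes through RAS, RAF and MEK to ERK, which drives these cells out of self-renewal. ERK in turn induces genes whose products damp the cascade at different levels: dual-specificity phosphatases dephosphorylate ERK, Sprouty proteins act between the receptor and RAF, and Spred proteins bring the RAS GTPase activator neurofibromin to the membrane. Etv4 and Etv5 are ETS factors that are transcribed in response to FGF signals and act on FGF target genes.

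None of the 23 tested probe sets differed between the groups at an adjusted p under 0.05 (limma, values adjusted over all 22518 tested probe sets), where 3.12% of all tested probe sets did (1.35% higher and 1.77% lower in the (+)/(+) iPSCs). Counted as 1 probe set per gene, 0 of 10 genes passed, against 2.96% of 11177 tested genes (1.55% higher and 1.41% lower). At an unadjusted p under 0.05 there were 8 of 23, against 21.2% of all tested probe sets. The members did not share a direction. All 3 Dusp genes, Spry2 and Etv5 had a higher mean in the (+)/(+) iPSCs, while Spry1, Spry4, both Spred genes and Etv4 had a lower one, each gene being represented by its brightest probe set (Spry1 turned to 0.014 when the arrays were scaled to a common median signal). In 7 of 23 probe sets the clones of the groups did not overlap (3 higher and 4 lower in the (+)/(+) iPSCs), against 27.1% of all tested probe sets (10.5% higher and 16.6% lower). With the arrays scaled to a common median, which moved the median log2 fold change of all tested probe sets from −0.05 to 0.10, the counts without overlap were 6 higher and 2 lower, against 22.4% and 7.67% of all tested probe sets at that scaling. The median log2 fold change as reported was −0.19 over the 23 probe sets and −0.05 over all tested, and log2 fold changes are given throughout for signal + 16 in (+)/(+) over (−)/(+) iPSCs.

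**Figure D1:**
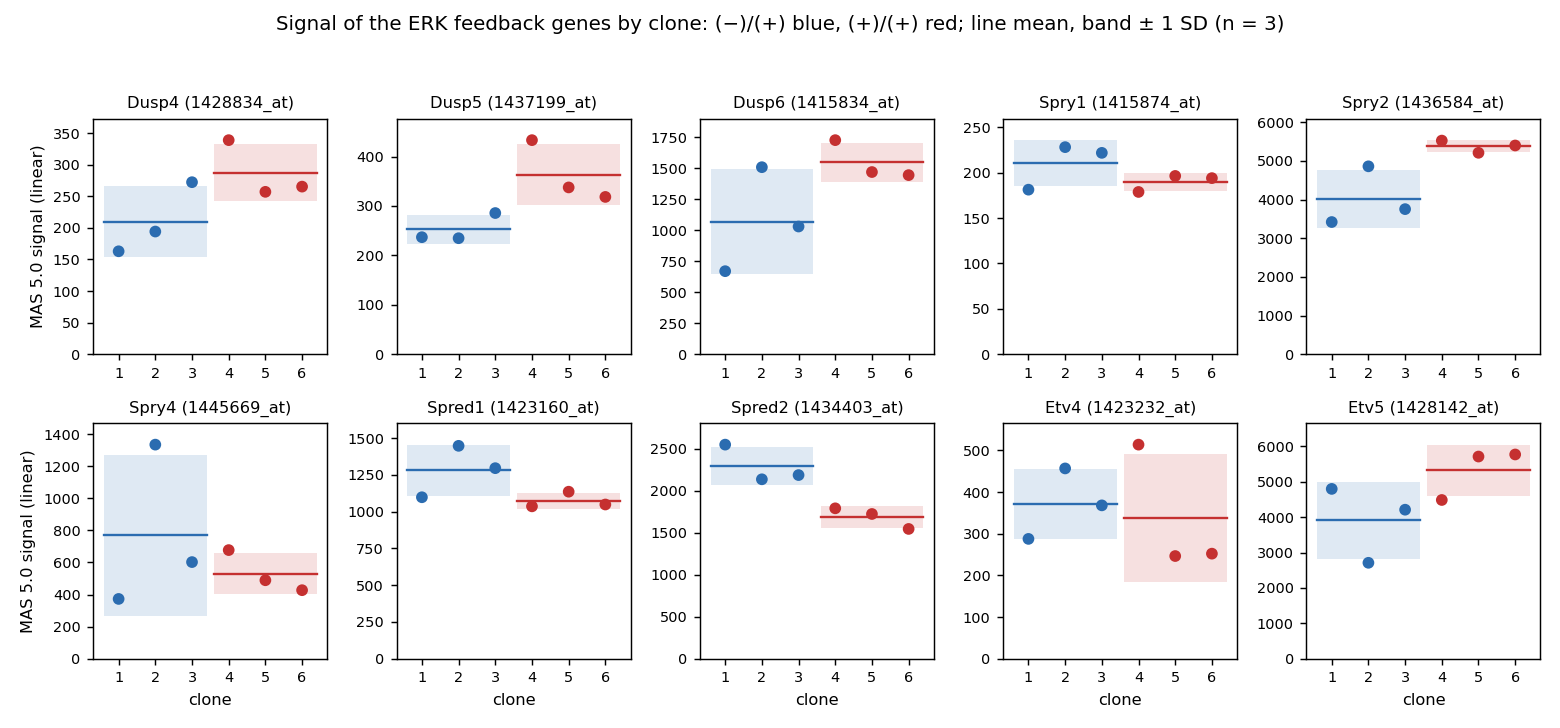
MAS 5.0 signal (linear axis from 0) of the brightest probe set of each of the 10 ERK negative feedback genes in clones 1 to 3, (−)/(+), in blue and clones 4 to 6, (+)/(+), in red, with lines at the group means and bands of ± 1 SD (n = 3). The groups do not overlap for Dusp5 and Spry2, where red is above, and for Spred2, where red is below, and the (−)/(+) clones of Spry4 run from 373 to 1334.

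The clones expressed pluripotency genes and also held transcripts of genes listed as fibroblast markers. All 12 pluripotency markers were above the filter, with signals such as 13681 ± 898 in (−)/(+) and 16026 ± 304 in (+)/(+) iPSCs (SD, n = 3) for Nanog, a core pluripotency factor. Of these markers 1 rose, the F-box gene Fbxo15, at 13486 ± 1848 against 20844 ± 1082 (log2 fold change 0.64, adjusted p = 0.0144). Of 24 fibroblast markers, 20 were tested, 9 were lower in the (+)/(+) iPSCs and 0 higher, among them the collagen Col1a2 (log2 fold change −1.58, adjusted p = 0.00426), the intermediate filament Vim (−0.87, adjusted p = 0.0113), the proteoglycan Bgn (−1.08, adjusted p = 0.0113) and the calcium-binding protein S100a6 (−0.73, adjusted p = 0.0188). The summed signal of the 23 fibroblast markers with a value ran from 35314 to 45121 in (−)/(+) and from 23227 to 27016 in (+)/(+) iPSCs, with clone 1 the lowest of its group. The 3 below the filter were Lum, Twist2 and Col1a1, and Col1a1, a collagen, read 101, 101 and 86.2 against 44.2, 45.3 and 37.3, without overlap. The groups overlapped for Lum and Twist2. Without clone 6 the calls of Vim and Bgn (adjusted p = 0.0675 for each), S100a6 (0.0929) and Fbxo15 (0.0898) were lost. Fbxo15 was also lost without clone 5 (0.0512), and S100a6 without clone 3, 4 or 5 (0.0607 to 0.0806). Of 9 primitive endoderm markers, 7 were tested and 0 called, with sums of 1297 to 1729 against 1090 to 2274. Fibroblast marker transcripts thus moved with the groups. The arrays do not show which cells these transcripts came from, and their part in the values below was not tested. In whole cultures, fewer cells of a type and less RNA per cell cannot be told apart.

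The dual-specificity phosphatases come last in the cascade, since they act on ERK itself, and each was represented by 1 probe set. Dusp6, the cytoplasmic ERK phosphatase (1415834_at; chr10:99263231-99267489, GRCm38.p6, as for all positions), had signals of 670, 1510 and 1031 in clones 1 to 3 and of 1728, 1470 and 1446 in clones 4 to 6. Clone 2 lay among the (+)/(+) clones and clone 1 far below them, so that the groups overlapped. The means were 1070 ± 421 and 1548 ± 156, with a log2 fold change of 0.60 (95% interval 0.07 to 1.12, adjusted p = 0.183). Single clones decided the call and the size: the log2 fold change was 0.88 without clone 2, past the threshold (adjusted p = 0.044), 0.30 without clone 1 (adjusted p = 0.317) and 0.22 without clones 1 and 4 (adjusted p = 0.478).

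Dusp5, a nuclear ERK phosphatase (1437199_at; chr19:53529145-53541809), was the phosphatase whose groups did not overlap. Its signals were 237, 235 and 286 for clones 1 to 3 against 433, 337 and 318 for clones 4 to 6. The log2 fold change was 0.49 (0.12 to 0.86, adjusted p = 0.131). Clone 4 stood highest and accounted for most of the spread of its group. Dusp4, the other nuclear phosphatase of ERK and related kinases (1428834_at; chr8:34807610-34819894), had signals of 163, 194 and 272 against 339, 257 and 265. Clone 3 lay within the (+)/(+) range. The log2 fold change was 0.44 (−0.01 to 0.89, adjusted p = 0.242). Genes on chromosome 8 as a whole were shifted up in clone 4 (median 0.41 on the log2 scale over 329 genes), and after each clone was centred on its chromosome the log2 fold change of Dusp4 was 0.30 (adjusted p = 0.394). Before centring, the log2 fold change of Dusp4 ran from 0.29 without clone 1 to 0.63 without clone 3.

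The Sprouty genes encode inhibitors that are induced by the signal they restrain. Spry2 (1436584_at; chr14:105891947-105896819) had signals of 3418, 4858 and 3752 in the (−)/(+) group and of 5524, 5208 and 5397 in the (+)/(+) group. All 3 (+)/(+) clones were above all 3 (−)/(+) clones and lay close together, with a highest signal 1.06 times the lowest against 1.42 times in the (−)/(+) iPSCs. The means were 4009 ± 754 and 5376 ± 159, with a log2 fold change of 0.44 (0.16 to 0.72, adjusted p = 0.0850). The other Spry2 probe set (1421656_at), with a much weaker signal of 161, 206 and 251 against 286, 263 and 254, also showed no overlap (log2 fold change 0.37, adjusted p = 0.268). The first Spry2 probe set was at 0.33 without clone 1 (adjusted p = 0.148). It passed the threshold without clone 2 (0.58, adjusted p = 0.027), after scaling the arrays to a common median (0.60, adjusted p = 0.035) and with arrays weighted by their quality (0.47, adjusted p = 0.016). Those settings called 151, 917 and 1015 of all 22518 tested probe sets higher, against 305 as reported.

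Spry4 (1445669_at; chr18:38586247-38601347) had the lower mean in the (+)/(+) iPSCs and the widest spread among the tested member probe sets. Its signals were 373, 1334 and 602 in clones 1 to 3 and 677, 489 and 427 in clones 4 to 6. Clone 2 was 3.58 times clone 1, and the (+)/(+) clones fell between the extremes. The log2 fold change was −0.35 (−1.16 to 0.45, adjusted p = 0.609). It was −0.77 without clone 1 (adjusted p = 0.166) and turned to 0.13 without clone 2 (adjusted p = 0.803). The other tested Spry4 probe set (1440867_at) kept clone 2 as the highest and clone 1 as the lowest of the (−)/(+) iPSCs, at 127 and 67.0, with a log2 fold change of −0.19 (adjusted p = 0.719). Of the 2 Spry4 probe sets below the filter, 1422021_at again had clone 2 highest, at 113, while 1422020_at read 7.54, 10.1 and 8.58 against 18.2, 30.9 and 27.9, signals too low to be tested. Spry1 (1415874_at; chr3:37639947-37644599) was nearly flat, with signals of 181, 228 and 222 against 179, 197 and 194. The log2 fold change was −0.13 (−0.49 to 0.23, adjusted p = 0.672), and it was 0.01 when the arrays were scaled to a common median.

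Of the 10 tested probe sets of the Spred genes, 9 had a negative log2 fold change, against 57.6% of all tested probe sets, and in 4 the (+)/(+) clones lay below the (−)/(+) clones, against 16.6%. At a common median these counts were 8 and 2, against 36.8% and 7.67% of all tested probe sets. None of the 10 passed the threshold. Probe sets of 1 gene share the same RNA and are not separate evidence. Spred2 (1434403_at; chr11:19924442-20024026) had signals of 2548, 2136 and 2186 in clones 1 to 3 and of 1790, 1723 and 1545 in clones 4 to 6. The groups were well apart, with clone 1 the highest and clone 6 the lowest. The means were 2290 ± 225 and 1686 ± 127, with a log2 fold change of −0.44 (−0.69 to −0.18, adjusted p = 0.0668), the smallest adjusted p among the members. A weaker Spred2 probe set (1441415_at) read 194, 148 and 193 against 109, 114 and 83.8, again without overlap (log2 fold change −0.72, adjusted p = 0.0745). For the remaining tested Spred2 probe sets (1436892_at and 1441802_at) the groups overlapped, with log2 fold changes of −0.27 and −0.33 (adjusted p = 0.447 and 0.427), and 1423001_at was below the filter at 38.9, 33.3 and 11.5 against 6.00, 7.42 and 8.59.

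Genes on chromosome 11 were shifted up in clone 1 (median 0.27 over 502 genes), and with each clone centred on its chromosome the log2 fold changes of the first and second Spred2 probe sets were −0.30 (adjusted p = 0.134) and −0.58 (adjusted p = 0.118). On the chromosomes of the members other than 8 and 11, the shifts of the clones lay between −0.03 and 0.03. With arrays weighted by their quality and no centring, both Spred2 probe sets passed the threshold, the first at −0.44 (adjusted p = 0.020). That setting called 1512 of all 22518 tested probe sets lower, against 398 as reported.

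Spred1 (chr2:117121071-117182279) had 8 probe sets, of which 6 were tested. The brightest (1423160_at) read 1098, 1447 and 1295 against 1036, 1135 and 1048, where clone 1 lay among the (+)/(+) clones (log2 fold change −0.24, adjusted p = 0.309). The next (1423161_s_at) read 822, 1206 and 1096 against 765, 771 and 653. Here the groups did not overlap, although clone 1 was close to the (+)/(+) clones. The log2 fold change was −0.49 (−0.84 to −0.14, adjusted p = 0.114), and it was −0.65 without clone 1 (adjusted p = 0.031) and −0.38 without clone 2 (adjusted p = 0.239). A weak probe set (1428777_at) had (+)/(+) signals of 68.3 to 72.9, below the (−)/(+) signals of 76.6 to 130 (−0.46, adjusted p = 0.262). The other 3 tested Spred1 probe sets overlapped, with log2 fold changes from −0.22 to 0.01, and 1443652_x_at and 1445228_at were below the filter in the mean, with no signal above 40.9.

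**Figure D2:**
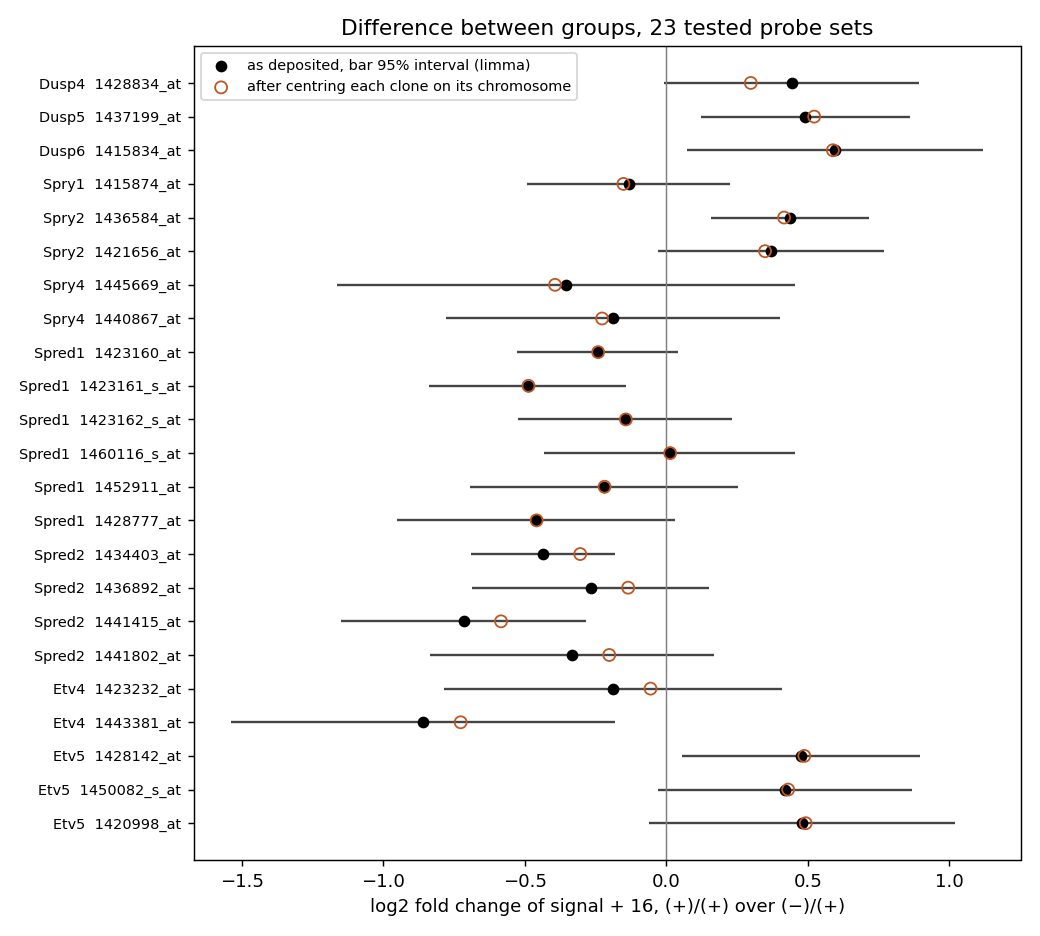
Log2 fold change of signal + 16 in (+)/(+) over (−)/(+) iPSCs for the 23 tested probe sets, with the 95% interval from limma (black) and the value after centring each clone on its chromosome (open circles). The Dusp genes, Spry2 and Etv5 lie to the right of 0 and 9 of 10 Spred probe sets to the left, and centring moved Dusp4 from 0.44 to 0.30 and the first Spred2 probe set from −0.44 to −0.30.

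The ETS factors Etv4 and Etv5, close relatives of each other, were ordered oppositely across the (−)/(+) clones. Etv5 (1428142_at; chr16:22381313-22439570) had signals of 4797, 2710 and 4209 in clones 1 to 3 and of 4484, 5710 and 5769 in clones 4 to 6. Clone 2 was far below the rest, and clone 1 lay within the (+)/(+) range. The means were 3905 ± 1076 and 5321 ± 726, with a log2 fold change of 0.48 (0.06 to 0.90, adjusted p = 0.186). The other Etv5 probe sets gave log2 fold changes of 0.42 (1450082_s_at, adjusted p = 0.266) and 0.48 (1420998_at, adjusted p = 0.287), each with clone 1 the highest and clone 2 the lowest of the (−)/(+) iPSCs. Without clone 2, the brightest was at 0.23 (adjusted p = 0.372) and 1420998_at at 0.29 (adjusted p = 0.555). Without clone 1, 1420998_at passed the threshold (0.79, adjusted p = 0.037). Clones 1 and 4 are those in which a chromosome carrying members (11 and 8) was shifted. Without both of them, a setting added after the data were seen, 1428142_at (0.76, adjusted p = 0.048) and 1420998_at (0.89, adjusted p = 0.028) passed. Etv5 itself lies on chromosome 16, where the shifts of the clones lay between −0.01 and 0.02. For both probe sets clone 1 was the highest (−)/(+) and clone 4 the lowest (+)/(+) clone, so that leaving them out widens the difference.

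Etv4 (1423232_at; chr11:101769747-101785310) had signals of 288, 457 and 368 against 514, 246 and 252. Clone 4 was the highest of all 6 and clones 5 and 6 the lowest. The log2 fold change was −0.19 (−0.79 to 0.41, adjusted p = 0.723), and −0.06 after centring on the chromosome. It was −0.52 without clone 4 (adjusted p = 0.225) and −0.014 without clone 5 (adjusted p = 0.985), so that its size rested on single clones. The second Etv4 probe set (1443381_at) read 83.3, 180 and 116 against 87.9, 38.3 and 60.3, with a log2 fold change of −0.86 (−1.54 to −0.18, adjusted p = 0.145). It was −1.32 without clones 1 and 4 (adjusted p = 0.044) and −0.60 without clone 2 (adjusted p = 0.327). As with the first, clone 2 was the highest and clone 1 the lowest of the (−)/(+) iPSCs. Clone 4 was the highest of the (+)/(+) iPSCs, so that leaving out clones 1 and 4 widens the difference.

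The clones of a group also differed among themselves, and this spread is given here as a description. The log2 SD was larger among the (−)/(+) than among the (+)/(+) clones in 18 of 23 probe sets (78.3%, against 55.1% of all tested probe sets), with a median of 0.30 against 0.19, where the medians over all tested probe sets were 0.18 and 0.16. By gene this held for 8 of 10, against 55.4% of the 11177 tested genes. Clone 2 was the highest and clone 1 the lowest (−)/(+) clone in 12 of 23 probe sets (52.2%, against 21.1% of all tested probe sets), among them those of Dusp6, Spry1, Spry4 and Etv4, the brighter one of Spry2 and 5 of the 6 of Spred1. Relative to its group mean on the log2 scale, clone 2 was at 0.97 for Spry4, 0.57 for Dusp6 and 0.31 for Etv4, and clone 1 at −0.82, −0.59 and −0.33. The opposite order, clone 1 highest and clone 2 lowest, was found in 7 of 23 (30.4%, against 21.9%), which were the 3 probe sets of Etv5 and the 4 of Spred2. Spred2 lies on chromosome 11, where clone 1 was shifted up by 0.27. After centring on the chromosome this order was left in 1 of the 4 Spred2 probe sets and in all 3 of Etv5. That was 4 of 23 in all, while clone 2 was highest and clone 1 lowest in 13. Only member probe sets were centred, so the shares of all tested probe sets given above do not apply to these counts. For the brightest of Etv5, clone 2 was at −0.48 and clone 1 at 0.34. Among the (+)/(+) clones, clone 4 was the highest in 12 of 23 (52.2%, against 33.6%) and clone 6 the lowest in 11 (47.8%, against 33.1%). Probe sets of 1 gene are counted separately here, and the fibroblast sum was also lowest in clone 1 of its group. Their part in this pattern was not tested.

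**Figure D3:**
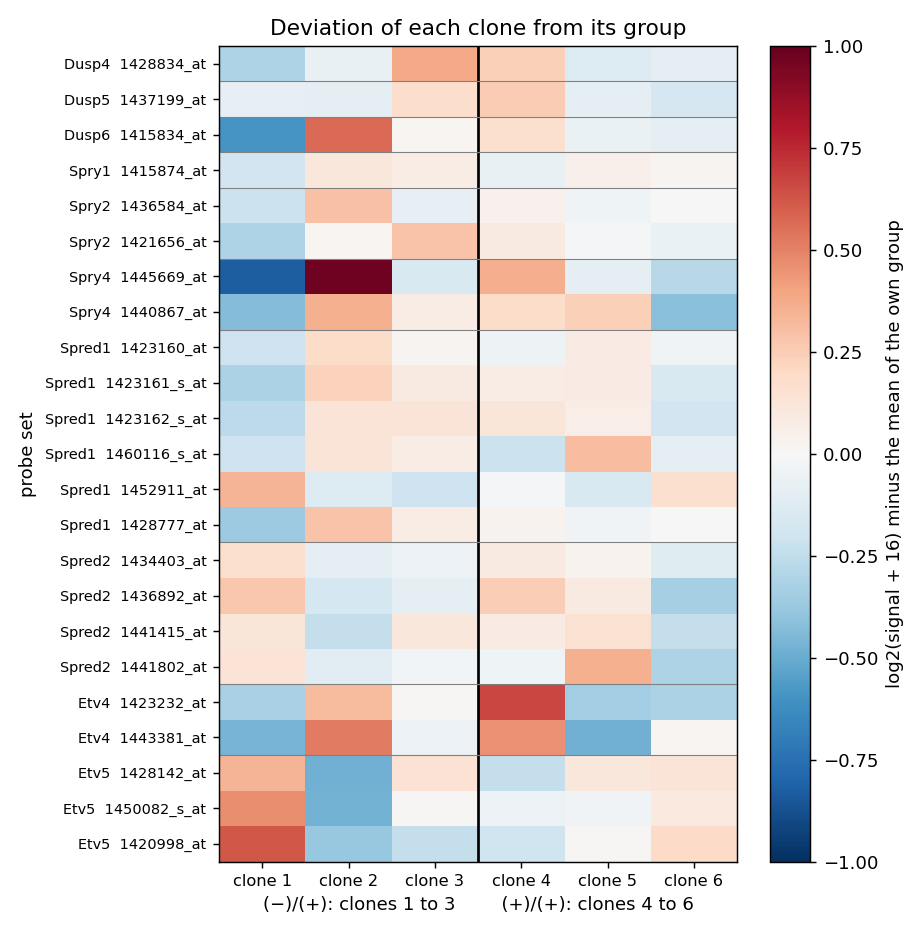
Deviation of each clone from its group mean on the log2(signal + 16) scale for the 23 tested probe sets, blue below and red above the mean. Clone 1 is below and clone 2 above the mean for Dusp6, Spry4 and Etv4, the reverse holds for Etv5, and Spry4 has the extremes of −0.82 and 0.97.

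The mean standardised profile of the 10 genes over the 6 clones, each gene counted once, was −0.70, 0.32 and 0.12 in clones 1 to 3 and 0.38, 0.02 and −0.14 in clones 4 to 6, so that clone 1 stood lowest and clone 4 highest. For comparison with the 11167 other tested genes, each standardised, this profile was rescaled to an SD of 1. The genes with the smallest mean absolute difference from the rescaled profile, in units of SD, were Kifc3 (0.0905), Irf2bp1 (0.0998), Pygo2 (0.107), Timmdc1 (0.117) and Stmn3 (0.118). With 6 clones, many genes come close to any profile.

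The rest of the pathway was taken from a list of 50 other genes, of which 43 had a probe set of their own and 36 were tested. Elk3, an ETS factor of the ternary complex that ERK phosphorylates, was the only one to pass the threshold. Its signals were 235, 315 and 298 for clones 1 to 3 against 125, 156 and 116 for clones 4 to 6. The groups were far apart, with means of 283 ± 42.5 and 132 ± 21.0 (log2 fold change −1.01, −1.42 to −0.61, adjusted p = 0.0214). The call was kept without clone 1 and lost when any other clone was left out, with adjusted p between 0.052 (without clone 5) and 0.112 (without clone 6). Of the 36 genes, 12 had a positive and 24 a negative log2 fold change, with a median of −0.05. Over all 11177 tested genes, 4739 were positive and 6438 negative, with a median also of −0.05. In 7 of the 36 the (+)/(+) clones lay below the (−)/(+) clones and in 0 above. Over all tested genes 1770 lay below and 1171 above, which is 26.3% without overlap in either direction.

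The brightest gene of each role in this list did not pass the threshold. Fgf4, the ligand, had means of 3757 ± 345 and 3905 ± 708 (adjusted p = 0.889), and the receptor gene Fgfr1 385 ± 36 and 368 ± 64.2 (adjusted p = 0.827). The adaptor Gab1, the GTPase Nras and the kinase Map2k1 (MEK1, a target of PD184352) had log2 fold changes of −0.02, −0.12 and −0.04 (adjusted p = 0.967, 0.645 and 0.850). The phosphatase Dusp1 had means of 6007 ± 97.7 and 5570 ± 470 (adjusted p = 0.512). The immediate early gene Egr1 was below in all 3 (+)/(+) clones, as were 1770 of 11177 tested genes, at 12949 ± 336 against 11615 ± 1179. Its log2 fold change was −0.16 (adjusted p = 0.333). The size depended on the scaling, at −0.28 under quantile normalization (adjusted p = 0.122) and −0.003 at a common median (adjusted p = 0.992).

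**Figure D4:**
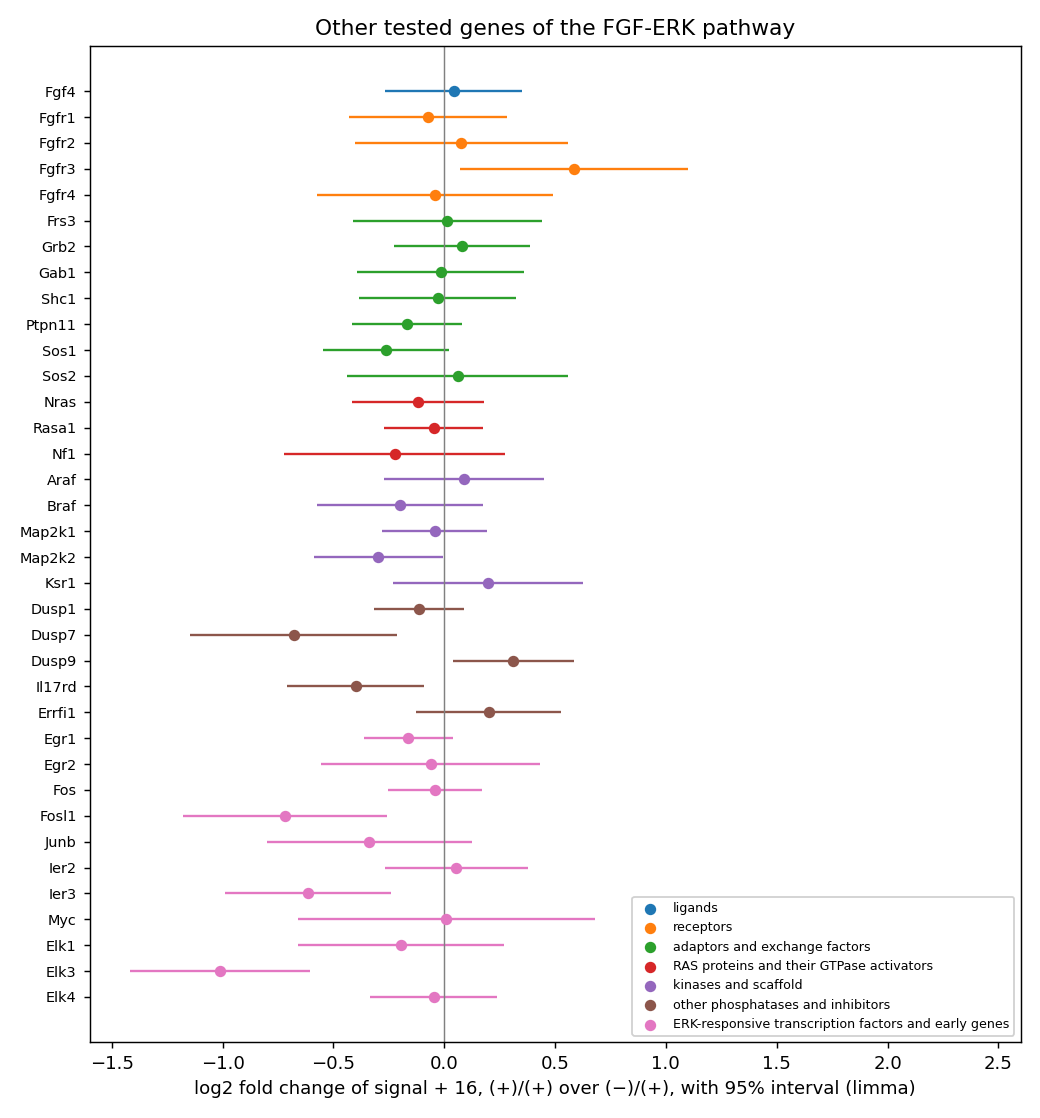
Log2 fold change of signal + 16 in (+)/(+) over (−)/(+) iPSCs, with the 95% interval from limma, for the 36 tested genes of the FGF-ERK pathway other than the 10 feedback genes, coloured by role. Elk3, at −1.01, is the only one that passed the threshold, and 24 of the 36 points lie below 0, as do 6438 of all 11177 tested genes.

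Promoter sequence was available from RefSeq for 7 of the 10 genes, in 8 windows of 250 bases before to 50 after the start of a gene (GRCm38.p6), Etv5 having 2. The 7-base ETS core CCGGAAG was in 0 of 8 windows (8.86% of 32851 promoters of all genes held it), the AP-1 site TGANTCA in 0 of 8 (7.81%), the cAMP response half-site TGACG in 2 of 8 (20.8%) and the CArG box of the serum response element in 1 of 8 (1.63%), searched on both strands. The only windows that held a match, those of Dusp5 and Spred2, are shown with the matches in capitals. The clones of the groups did not overlap upward for Dusp5 and downward for Spred2. The window of Spry2, whose clones also did not overlap upward, held no match. In Dusp5 (chr19:53528895-53529194, plus strand) adjacent CArG boxes lie at −82 to −73 and −72 to −63 from the start and the cAMP half-site at −55 to −51; in Spred2 (chr11:19924192-19924491, plus strand) the half-site lies at −51 to −47. A match is a description of letters and not a site, and nothing in these arrays bears on binding there.
Dusp5: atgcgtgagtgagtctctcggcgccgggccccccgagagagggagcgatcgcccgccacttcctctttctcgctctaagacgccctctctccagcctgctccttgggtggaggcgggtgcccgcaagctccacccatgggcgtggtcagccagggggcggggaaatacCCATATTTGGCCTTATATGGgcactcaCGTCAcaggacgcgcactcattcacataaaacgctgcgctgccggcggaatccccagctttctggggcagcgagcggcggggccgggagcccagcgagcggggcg
Spred2: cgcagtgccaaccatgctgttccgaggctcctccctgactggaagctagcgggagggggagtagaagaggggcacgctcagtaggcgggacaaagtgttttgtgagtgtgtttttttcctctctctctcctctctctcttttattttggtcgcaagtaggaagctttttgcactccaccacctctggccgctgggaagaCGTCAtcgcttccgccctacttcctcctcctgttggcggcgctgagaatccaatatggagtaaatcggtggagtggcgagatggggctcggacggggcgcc
The Dusp5 window had 66.7% G and C with 28 CpG, and the Spred2 window 57.0% with 17, where the medians of all promoters were 52.7% and 7.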

How the data were processed

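RNA of the 6 clones was labelled with biotin and hybridised to 1-colour Affymetrix Mouse Genome arrays, 1 array per clone. The authors quantified the arrays with MAS 5.0 and deposited signal intensities on a linear scale, 1 value per probe set, and in these values each array has the same mean after the highest and lowest 2% are trimmed. Such scaling makes values relative to the bulk of the array, whose medians ran from 74.2 to 75.7 in (−)/(+) and from 64.1 to 70.2 in (+)/(+) iPSCs. The precision is limited by the number of arrays, and presence calls played no part. The table holds 45101 probe sets, 64 of them controls, which were dropped. Of the rest, 34945 name 1 gene in the array annotation, 932 several and 9160 none. No member probe set was shared with another gene. All 10 members matched RefSeq by gene identifier. Signals of different probe sets are not compared.

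Values were analysed as log2(signal + 16). Probe sets whose mean log2 value exceeded the overall median (a signal of about 67.2) were tested in R 4.3.3 with limma 3.58.1 (lmFit, eBayes with trend), on group alone, two-sided, with Benjamini-Hochberg adjustment over all 22518. Intervals are 95%. The script was tested on simulated data. Each gene was represented by its brightest probe set, which gave 11177 tested genes. Chromosome shifts are medians over tested genes with a mean signal above 500. The members, lists and tests were chosen with earlier results of these data known. All members are named. Of the pathway list, the called genes and the brightest of each role are named, and of the marker lists up to 4 genes. The fibroblast markers below the filter are named as well. Alternatives were other scalings (quantile, common median), pseudocounts of 1 and 64, no filter or a mean signal above 500, eBayes without trend, array weights, averaging over the probe sets of a gene, the methods' t-test, centring on the chromosome and leaving out each clone. Leaving out clones 1 and 4 together was added after seeing the data.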

Additional observations from a re-analysis of the deposited data

How the results depend on the processing

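No paired analysis was possible because the groups share no clone number. The precision rests on 3 arrays per group, and the cause of each change below was not tested. Member probe sets called higher (0 as reported) numbered 1 at a common median, 2 with array weights, 2 by the methods' t-test unadjusted and 2 without clones 1 and 4. Called lower (0 as reported), they numbered 4 with array weights, 2 by the unadjusted t-test and 2 without clones 1 and 4. Leaving out a clone gave 0 to 2 higher and 0 to 1 lower. Over all 22518 tested probe sets, 703 were called in either direction as reported. That number was 1154 at a common median, 2527 with array weights, 3999 by the unadjusted t-test and 1062 without clones 1 and 4. Member genes called higher (0) numbered 1, 1, 2 and 1 in the same order and 0 to 2 leaving out a clone; called lower (0), 1 with array weights and 1 by the unadjusted t-test. Centred on the chromosome, 0 were called, and 0 to 2 higher and 0 to 1 lower leaving out a clone. By the methods' t-test after Benjamini-Hochberg, 0 members passed. Both t-test settings used p alone, without the limits on fold change and signal that the authors set beside it. Pathway genes called lower (1) fell to 0 with no filter, the adjusted t-test, a signal above 500 and all probe sets averaged (Elk3 was below the filter in the latter 2), and rose to 5 with array weights and with the unadjusted t-test (0 to 1 leaving out a clone); called higher (0), 1 with array weights. Fibroblast markers called lower (9) numbered 4 with no filter, 5 at a signal above 500, 3 without trend, 14 with array weights, 0 by the adjusted t-test, and 1 to 10 leaving out a clone.

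Over all tested probe sets, 305 were higher and 398 lower. Scaling to a common median gave 917 and 237, which raises the share called higher from 43.4% to 79.5% and moves the median log2 fold change from −0.05 to 0.10; quantile normalization gave 287 and 255 (53.0% higher). There were 101 and 120 with no filter, 215 and 165 at a signal above 500, 87 and 178 without trend, 1015 and 1512 with array weights, 1572 and 2427 by the unadjusted t-test, 0 and 1 by the adjusted t-test, 535 and 527 without clones 1 and 4, and 27 to 446 and 25 to 515 leaving out a clone. The genes whose sign turned follow. At a common median the log2 fold change was 0.014 for Spry1, 0.079 for Fgfr1, 0.14 for Gab1, 0.039 for Nras, 0.12 for Map2k1 and 0.047 for Dusp1. Fgfr1 was at 0.018 under quantile normalization and 0.066 with all probe sets averaged, and Map2k1 at 0.030 with array weights. Leaving out a clone, values ran from −0.77 to 0.13 for Spry4, −0.044 to 0.20 for Fgf4, −0.20 to 0.023 for Fgfr1, −0.23 to 0.19 for Gab1, −0.24 to 0.016 for Nras and −0.11 to 0.036 for Map2k1. The other 8 members kept their sign under every alternative run.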
